A study of Homo sapiens with 4 samples.

Results

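The 9 genes described here build and read the receptor of precursor B cells: CD79A and CD79B, CD22, BLNK, VPREB1 and IGLL1, RAG1 and RAG2, and DNTT. They were chosen by gene symbol, from their known roles, and with earlier results of these data known. Each line of 4 peak files that carried their symbol was taken, out of 18576 gene symbols in the files. H3K4me3, the trimethyl mark on histone H3 that sits at gene starts, and WDR5, a subunit shared by the MLL family of H3K4 methyltransferase complexes, were profiled by ChIP-seq in RS4;11 cells, a B-precursor acute lymphoblastic leukemia line, and in THP-1 cells, a monocytic acute myeloid leukemia line. Each combination of antibody and line is 1 sample of cells in culture, with no treatment named in the labels, so no value has a replicate and no test was made, and both lines carry a rearranged MLL gene and are each derived from a single patient. The labels of the THP-1 WDR5 sample and of the RS4;11 H3K4me3 sample give the other type of leukemia, and the type stated with the study was used.

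A B cell assembles its immunoglobulin genes while it matures. RAG1 and RAG2 together cut the gene segments and DNTT, the terminal deoxynucleotidyl transferase, adds bases at the joins. The finished heavy chain is displayed with the surrogate light chain, made of VPREB1 and IGLL1, and with the signalling chains CD79A and CD79B, and BLNK is the adaptor that carries the signal onward. CD22 is an inhibitory coreceptor of the same cells. The receptor chains and CD22 stay in use in mature B cells, whereas the surrogate light chain, RAG1, RAG2 and DNTT mark the precursor stages.

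The H3K4me3 lists hold 24212 distinct peaks for RS4;11 cells (median width 1391 bp) and 26523 for THP-1 cells (median 1241 bp), and the WDR5 lists hold 703 and 225. They give positions only, with no tag counts, heights or p-values, so the depth behind a peak is unknown. The widest H3K4me3 peak is 4478 bp in RS4;11 cells and 4446 bp in THP-1 cells. Of 20 genes used by nearly every cell, chosen after the data were seen, 11 have no peak in either line in the window from 2000 bp before to 500 bp after their MANE Select start (defined below), ACTB, GAPDH and EEF1A1 among them. Of the genes whose start carries a THP-1 peak of 2000 to 3000 bp, 87.2% also have a peak in RS4;11 cells, and of those with a THP-1 peak of at least 4000 bp, 73.6% do. In the other direction the shares are 95.0% and 65.9%. Narrow peaks are also shared less: of starts with a THP-1 peak under 1000 bp, 40.6% have one in RS4;11 cells. For RS4;11 peaks under 1000 bp the share with one in THP-1 cells is 68.4%. Of 19 markers of B-cell precursors 3 have a start peak in RS4;11 and 13 do in THP-1, whereas CD79A has one in RS4;11 alone. The B-precursor counts run against the types of leukemia stated with the study, since the monocytic line has more of these starts marked. The monocyte and myeloid markers, described below, do not run against them. Of 22 such markers 13 have a start peak in THP-1 cells and 7 in the other line. Of the H3K4me3 samples counted here, the label of RS4;11 gives the other type and that of THP-1 does not. The cause of the marker counts was not tested. A gene without a listed peak is therefore described below as that, and not as a gene without the mark.

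The files list an H3K4me3 peak for 7 of the 9 genes in each line. VPREB1 and RAG2 have none in RS4;11 cells, and VPREB1 and IGLL1 have none in THP-1 cells. The authors' flags reach 20 kb from a transcript. By distance to the annotated gene instead, 8 of the 9 have a peak within 20 kb in RS4;11 and 7 in THP-1, beside 78.4% and 83.4% of all 20163 protein-coding genes, so the counts are near the background in each line. The added gene is RAG2, whose annotated end lies 10541 bp from an RS4;11 peak that is listed for RAG1 and not for RAG2. A WDR5 peak is listed for 1 of the 9 genes, RAG1, in RS4;11 cells and for 0 in THP-1 cells, beside 4.38% and 1.48% of all genes. The lists are thus little different in number, and the lines are set apart by where the peaks lie and how wide they are.

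RS4;11 cells have 16 distinct H3K4me3 peaks listed for these genes and THP-1 cells have 10. The RS4;11 peaks cover 29710 bp in all, with a mean width of 1857 bp, and the THP-1 peaks cover 10650 bp, with a mean of 1065 bp. The nearest gene start belongs to a gene of the set for 13 of the 16 RS4;11 peaks and for 5 of the 10 THP-1 peaks. The remaining 3 and 5 peaks lie nearest to a neighbour, such as ARHGEF1 beside CD79A. In each line 5 of the peaks share at least 1 bp with a peak of the other line.

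**Figure D1:**
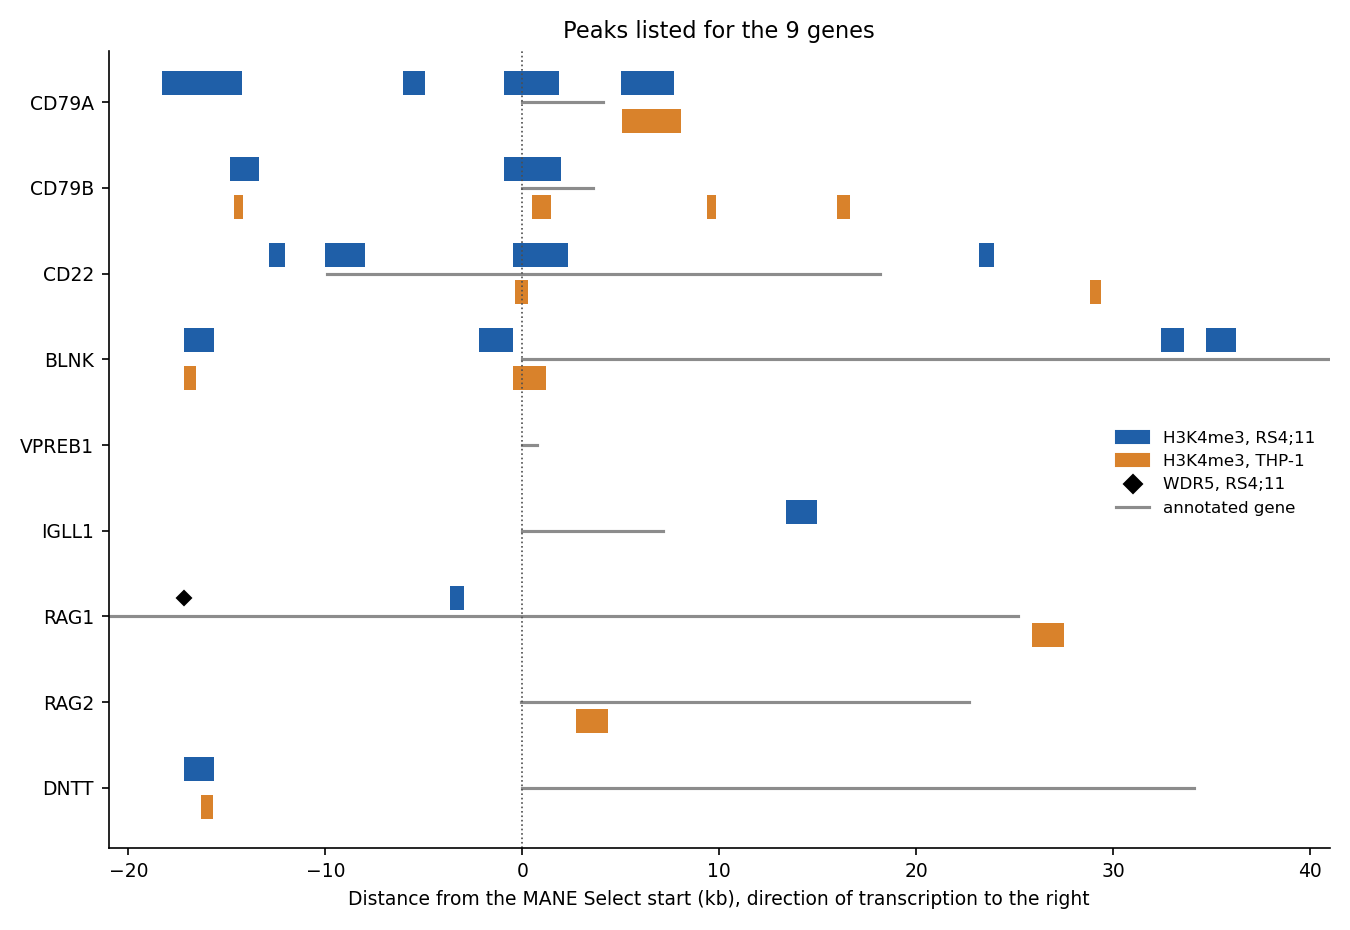
Peaks listed for each of the 9 genes, plotted by distance in kb from the start of the gene's MANE Select transcript, with transcription to the right. Blue bars are H3K4me3 peaks of RS4;11 cells, orange bars those of THP-1 cells, the diamond is the RS4;11 WDR5 peak and the grey line is the annotated gene. Wide blue peaks cover the starts of CD79A, CD79B and CD22, and VPREB1 has no peak.

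To ask which starts were marked, the window that reaches 2000 bp upstream and 500 bp downstream of the start was used, and a gene counted when at least 1 bp of a peak lay in it. With the start at the outermost 5′ end of the annotated gene, 5 of the 9 genes had a peak in RS4;11 cells (CD22, CD79A, CD79B, BLNK and RAG1), beside 49.1% of all protein-coding genes, and 2 had one in THP-1 cells (BLNK and RAG1), beside 55.3%. CD22, CD79A and CD79B had one in RS4;11 cells and not in THP-1 cells, which holds for 5.71% of all genes. For 2 genes the 5′ end is far from the start in common use: for CD22 it lies 9926 bp upstream, and for RAG1 57635 bp upstream, where the peaks (2802 bp in RS4;11 cells and 3295 bp in THP-1 cells) are listed under the neighbouring gene TRAF6 and not under RAG1. The window was therefore also placed on the start of the MANE Select transcript, the representative transcript on which RefSeq and Ensembl are in accord, a choice made after the data were seen.

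With MANE Select starts, 4 of the 9 genes had a peak in RS4;11 cells (CD22, CD79A, CD79B and BLNK) and 3 in THP-1 cells (CD22, CD79B and BLNK). The background is 52.9% of 18922 genes in RS4;11 and 60.6% in THP-1. CD79A alone had a peak in RS4;11 cells and not in THP-1 cells, which holds for 5.63% of genes. VPREB1, IGLL1, RAG1, RAG2 and DNTT, the genes of the surrogate light chain and of recombination, had no listed peak at this start in either line. The 4 genes with a peak in RS4;11 cells are the receptor chains, the coreceptor and the adaptor.

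The promoters of CD79A, CD22 and BLNK are printed because their start windows hold H3K4me3 peaks, and that of VPREB1 follows as a start without a listed peak. Each runs from 250 bp upstream to 50 bp downstream of the MANE Select start, 5′ to 3′ along the gene, in GRCh37, which has the coordinates of hg19: CD79A at chr19:42381099-42381398 (plus strand), CD22 at chr19:35819840-35820139 (plus strand), BLNK at chr10:98031277-98031576 (minus strand) and VPREB1 at chr22:22598948-22599247 (plus strand). Capitals mark matches on either strand to the letters CCCNNGGG (the core bound by EBF1), CAGGTG (an E-box of the kind bound by E2A), TGGGAA (the Ikaros core), TATAAA (the TATA box) and CCAAT.
CD79A: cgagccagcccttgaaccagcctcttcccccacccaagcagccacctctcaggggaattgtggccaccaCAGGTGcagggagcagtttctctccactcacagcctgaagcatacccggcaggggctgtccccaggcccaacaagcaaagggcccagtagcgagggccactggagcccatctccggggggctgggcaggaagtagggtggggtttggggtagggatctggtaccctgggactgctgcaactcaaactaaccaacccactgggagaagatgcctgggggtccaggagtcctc
CD22: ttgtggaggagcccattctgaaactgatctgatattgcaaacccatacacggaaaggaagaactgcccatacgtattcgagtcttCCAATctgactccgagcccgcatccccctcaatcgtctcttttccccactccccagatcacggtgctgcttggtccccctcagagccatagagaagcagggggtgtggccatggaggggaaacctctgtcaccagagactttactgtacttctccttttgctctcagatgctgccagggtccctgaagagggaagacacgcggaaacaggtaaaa
BLNK: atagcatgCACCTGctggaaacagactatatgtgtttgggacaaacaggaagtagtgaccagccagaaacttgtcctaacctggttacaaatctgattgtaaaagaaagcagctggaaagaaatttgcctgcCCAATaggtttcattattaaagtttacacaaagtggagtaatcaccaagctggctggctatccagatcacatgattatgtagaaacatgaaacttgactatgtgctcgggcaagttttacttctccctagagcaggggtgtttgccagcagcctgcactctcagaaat
VPREB1: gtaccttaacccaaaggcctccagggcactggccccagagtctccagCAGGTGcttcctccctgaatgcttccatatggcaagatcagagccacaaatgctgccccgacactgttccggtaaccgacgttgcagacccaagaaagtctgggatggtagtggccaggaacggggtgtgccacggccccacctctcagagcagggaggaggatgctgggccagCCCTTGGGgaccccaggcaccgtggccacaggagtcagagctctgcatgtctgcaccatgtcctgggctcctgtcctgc

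The E-box letters are in 6 of the 9 promoters (CD79A, VPREB1, IGLL1, BLNK, RAG1 and DNTT), beside 20.1% of 18921 promoters of the same length. The EBF1 core is in 3 (CD79B, VPREB1 and IGLL1), beside 22.1%, and the CCAAT box is in 5, beside 36.0%. The Ikaros core is in 1, RAG1, beside 22%, and the TATA box is in 0 of the 9, beside 9.44%. In the VPREB1 promoter the EBF1 core starts 29 bp upstream of the start and the E-box 203 bp upstream. In CD79A the E-box starts 181 bp upstream, and in BLNK 242 bp upstream. Motif matches stand at promoters with and without a listed peak, and a match describes the letters only. In IGLL1 the EBF1 matches overlap each other in pairs, and matches to different motifs do not overlap in any of the 9 promoters.

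All 9 promoters are poor in CpG. The ratio of observed to expected CpG ranges from 0 in RAG2 to 0.431 in CD22, whereas the median over all promoters is 0.782. Below a ratio of 0.5, where all 9 genes fall, 17.2% of genes have a peak at the MANE Select start in RS4;11, 20.6% in THP-1 and 5.32% in RS4;11 cells and not in THP-1 cells. At or above 0.5 the shares are 66.3% in RS4;11 and 75.6% in THP-1. The 4 genes with a listed peak in RS4;11 and 3 in THP-1 are thus to be read beside the lower shares. Within the set, VPREB1 (0.246), which has no listed peak, has more CpG than CD79A (0.134) and BLNK (0.0734), which have a peak in RS4;11.

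**Figure D2:**
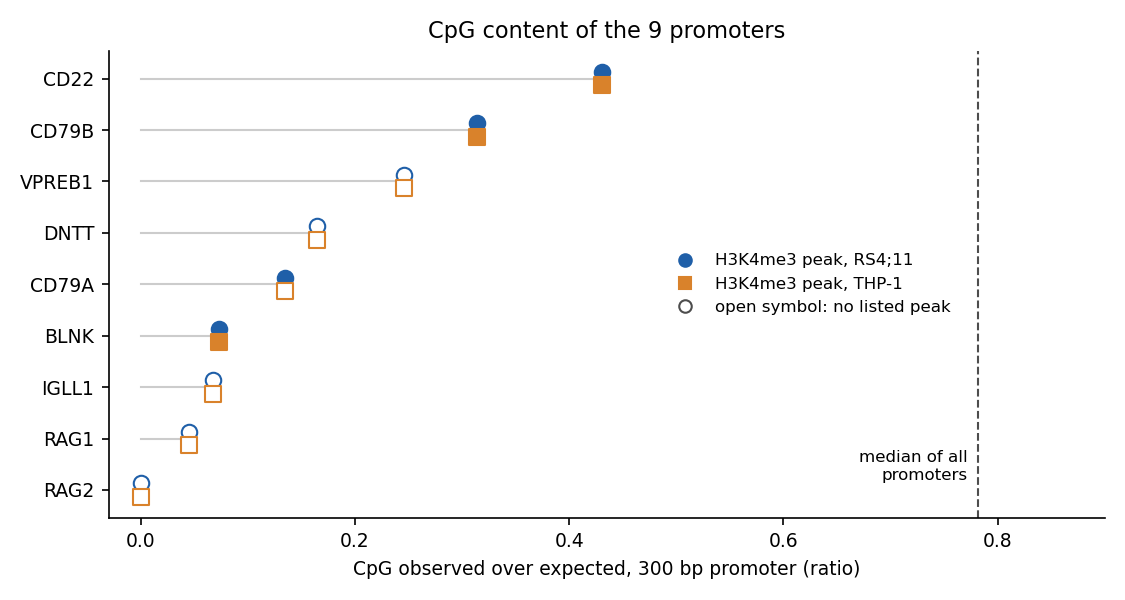
Ratio of observed to expected CpG in the 300 bp promoter of each gene (horizontal axis), with blue circles for RS4;11 cells and orange squares for THP-1 cells. Filled symbols have an H3K4me3 peak in the window at the MANE Select start, open symbols have no listed peak, and the dashed line is the median of all promoters (0.782). All 9 genes lie below 0.5, and genes with and without a listed peak overlap in CpG content.

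CD79A (ENSG00000105369, chr19:42381349-42385439, plus strand) encodes the immunoglobulin alpha chain, which carries the signal of the receptor into the cell. In RS4;11 cells a peak of 2816 bp (chr19:42380420-42383235) covers its start, from 929 bp upstream to 1886 bp downstream, and with it the 5′ untranslated bases and the first pair of exons. No THP-1 peak overlaps it, and the nearest THP-1 peak is 3183 bp away. CD79A is the only gene of the set with a peak at the MANE Select start in RS4;11 cells and none listed in THP-1 cells. The peak is wider than 61.6% of the widest start peaks of all marked genes in RS4;11 cells, so beside all marked starts its width is ordinary. Over marked starts with a CpG ratio under 0.5, where CD79A falls, the median is lower, at 1914 bp.

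The other peaks listed for CD79A lie outside the gene. A smaller RS4;11 peak of 1125 bp has its center 5517 bp upstream, and no THP-1 peak overlaps it. A peak downstream of the gene is listed in both lines, 2716 bp in RS4;11 cells and 3002 bp in THP-1 cells with 2639 bp in common, and the nearest start is that of ARHGEF1. It is the only THP-1 peak listed for CD79A. A peak of 4027 bp over RPS19, a ribosomal protein gene, is listed in RS4;11 cells, and no peak of the THP-1 list overlaps it.

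CD79B (ENSG00000007312, chr17:62006098-62009696, minus strand) encodes the immunoglobulin beta chain, the partner of CD79A. The RS4;11 peak is 2921 bp wide (chr17:62007702-62010622) and covers the start from 931 bp upstream to 1989 bp downstream, over exons 1 to 3. The THP-1 peak is 946 bp wide (chr17:62008247-62009192), lies wholly inside the former and begins 499 bp downstream of the start, over exon 2. The RS4;11 peak is thus 3.09 times as wide, and the THP-1 peak reaches the window by its edge only.

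A further region, with its RS4;11 peak centered 14091.5 bp upstream of CD79B in the sodium channel gene SCN4A, is listed in both lines. It spans 1476 bp in RS4;11 cells and 433 bp in THP-1 cells, and the latter peak lies inside the former. THP-1 cells also have 2 peaks downstream, of 429 and 668 bp, whose nearest start is that of the growth hormone gene GH1. At both regions that the lines share, the RS4;11 peak contains the THP-1 peak.

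CD22 (ENSG00000012124, chr19:35810164-35838264, plus strand) encodes a sialic acid-binding coreceptor that dampens receptor signals. At the MANE Select start the RS4;11 peak is 2769 bp wide (chr19:35819624-35822392), from 466 bp upstream to 2302 bp downstream. The THP-1 peak is 653 bp wide (chr19:35819704-35820356), covers the start from 386 bp upstream to 266 bp downstream and lies wholly inside the RS4;11 peak. The former is 4.24 times as wide as the latter.

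RS4;11 cells have a further peak of 2031 bp (chr19:35810091-35812121) over the outermost 5′ end of CD22 and one of 803 bp (chr19:35807238-35808040) upstream of it. Neither has a THP-1 counterpart, and the THP-1 peak nearest to the former is 7583 bp away. Thus the outermost 5′ end and the MANE Select start of CD22 both lie in RS4;11 peaks, and of the 2 the latter alone lies in a THP-1 peak. Each line has 1 peak downstream of CD22, of 807 bp in RS4;11 cells and 531 bp in THP-1 cells, nearest to the fatty acid receptor genes FFAR1 and FFAR3, and they do not overlap.

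BLNK (ENSG00000095585, chr10:97948927-98031344, minus strand) encodes the adaptor that links the receptor kinase SYK to downstream enzymes. Its start peaks have almost the same width, 1704 bp in RS4;11 cells (chr10:98031822-98033525) and 1706 bp in THP-1 cells (chr10:98030109-98031814), with a ratio of 0.999. Their positions differ: the THP-1 peak covers the start from 488 bp upstream to 1217 bp downstream, whereas the RS4;11 peak lies from 2199 to 496 bp upstream and does not reach the start. A gap of 8 bp separates the peaks. By presence and width BLNK is alike in the lines, and by position it is not.

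In RS4;11 cells 2 more peaks, of 1171 and 1550 bp, lie in the intron-only sequence of BLNK with centers 33027 and 35469.5 bp downstream of the start. THP-1 cells have no peak there, the nearest being 31225 bp away from the former and 33478 bp from the latter. Between BLNK and DNTT, which lie head to head, a peak of 1520 bp in RS4;11 cells (chr10:98047002-98048521) and of 618 bp in THP-1 cells (chr10:98047872-98048489) is listed for both genes. The latter again lies inside the former.

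Width set CD22 and CD79B apart between the lines and BLNK not. Among 8950 genes with a start peak in both lines the median ratio of RS4;11 to THP-1 width is 1.01. The ratio of CD22 is above 99.8% of these genes, that of CD79B above 99.2% and that of BLNK above 46.2%. These shares are over all starts marked in both lines, and not over those with a CpG ratio under 0.5 alone. The THP-1 peaks are the ones far from the middle: CD22 is wider than only 2.15% of marked genes in THP-1 cells and CD79B than 6.47%, whereas in RS4;11 cells they are wider than 59.3% and 65.8%. The median widest start peak over all marked genes is 2561 bp in RS4;11 cells and 2341 bp in THP-1 cells. Over those with a CpG ratio under 0.5, where all 9 genes fall, it is 1914 and 1746 bp. With 1 sample per line, no spread is known against which to set these ratios.

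**Figure D3:**
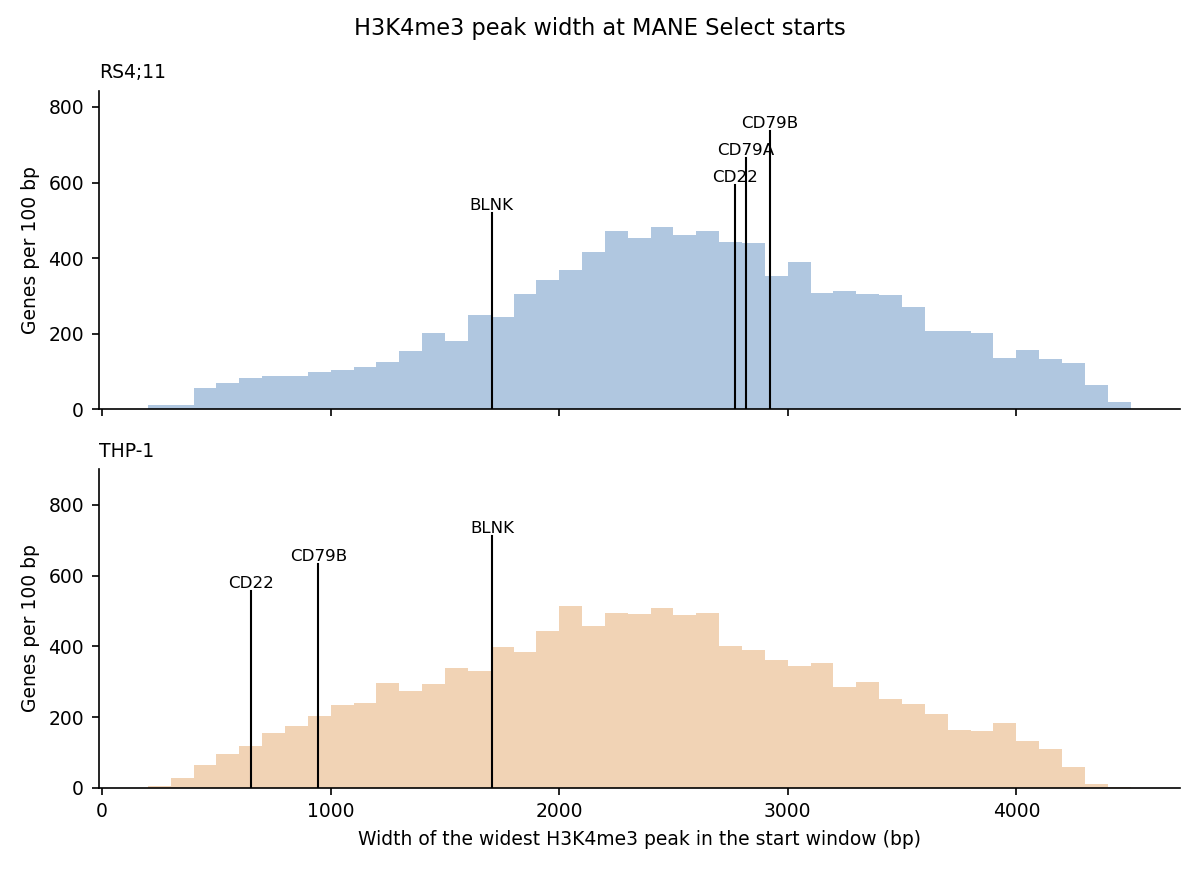
Width in bp of the widest H3K4me3 peak in the window at the MANE Select start (horizontal axis) against the number of protein-coding genes per 100 bp (bars), for RS4;11 cells (upper panel) and THP-1 cells (lower panel). Vertical lines mark the genes of the set with a peak, at heights that carry no value. CD22 (653 bp) and CD79B (946 bp) are in the narrow tail in THP-1 cells and near the middle in RS4;11 cells (2769 and 2921 bp). BLNK has nearly the same width in both lines, in peaks that do not overlap.

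The surrogate light chain genes have no listed peak over either gene. VPREB1 (ENSG00000169575, chr22:22599192-22599927, plus strand), a small gene among the lambda light chain variable segments, has no peak of any of the 4 files within 20 kb. The nearest H3K4me3 peak is 51.8 kb from its start in RS4;11 cells and 51.9 kb in THP-1 cells. IGLL1 (ENSG00000128322, chr22:23915312-23922489, minus strand) has a single RS4;11 peak of 1584 bp (chr22:23907517-23909100), beyond the 3′ end of the gene and 13377 bp from its start at the nearer edge. In THP-1 cells the nearest peak to IGLL1 is 136 kb away. VPREB1 thus gave the same picture in both lines, and IGLL1 differed by a distant peak.

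RAG1 (ENSG00000166349, chr11:36531922-36614706, plus strand) and RAG2 (ENSG00000175097, chr11:36597124-36619829, minus strand), the subunits of the recombinase, lie tail to tail. In RS4;11 cells RAG1 has a peak of 690 bp (chr11:36585894-36586583), from 3663 to 2974 bp upstream of its MANE Select start, which is outside the start window. It is among the narrower peaks of the list, 18.8% of which are narrower still, and no THP-1 peak overlaps it. RAG2 has no listed peak in RS4;11 cells, and its nearest one is the same RAG1 peak, 33.2 kb from its start.

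In THP-1 cells the peak listed for RAG1 and for RAG2 is the same, 1664 bp wide (chr11:36615413-36617076). It overlaps exon 2 of RAG2, which carries coding sequence, but its center is 192.5 bp from the start of IFTAP, listed by the authors under its older symbol C11orf74, and 3541.5 bp from that of RAG2. The THP-1 listing of both recombinase genes therefore rests on a peak at the start of another gene. Without peaks that lie nearest to another gene's start, THP-1 cells keep 4 of the 9 genes (CD22, CD79B, BLNK and DNTT) and RS4;11 cells keep 7.

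The WDR5 peak of RAG1 is the only WDR5 peak listed for the 9 genes. It is 469 bp wide (chr11:36572121-36572589), lies 17202 bp upstream of the MANE Select start at its center and inside the long annotated gene, and does not overlap an H3K4me3 peak listed for RAG1. It is wider than 87.9% of the RS4;11 WDR5 peaks. Its central 150 bp (chr11:36572280-36572429, plus strand, GRCh37) are printed because they lie under the only WDR5 peak of the set, and none of the 5 motifs named above is in them. The whole peak holds 1 match to the Ikaros core and 3 to the CCAAT box, outside these bases.
WDR5 peak at RAG1: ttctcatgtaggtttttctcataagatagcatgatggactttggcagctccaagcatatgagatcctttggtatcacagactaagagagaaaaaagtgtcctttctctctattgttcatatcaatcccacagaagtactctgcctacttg

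DNTT (ENSG00000107447, chr10:98064166-98098321, plus strand) has only the peak that it shares with BLNK. The nearer edge lies 15670 bp upstream of the DNTT start in RS4;11 cells and 15702 bp upstream in THP-1 cells. The region is listed in both lines and is wider in RS4;11 cells, 1520 against 618 bp. No peak lies within 5 kb of the DNTT start in either line.

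The length covered by H3K4me3 peaks within 5 kb to each side of the start takes all peaks at a start together. At the gene 5′ end the median over the 9 genes is 1704 bp in RS4;11 cells and 0 bp in THP-1 cells, beside 1032 and 1467 bp over all protein-coding genes. At the MANE Select start the median is 690 bp in RS4;11 cells and 0 bp in THP-1 cells, beside 1381.5 and 1650 bp. The RS4;11 median is thus above that of all genes with the former start and below it with the latter. At the gene 5′ end RAG1 enters with 2802 bp in RS4;11 and 3295 bp in THP-1, in the peaks listed under TRAF6. The median with the former start thus counts a peak of a neighbouring gene. At the MANE Select start RAG1 has 690 and 0 bp, and 690 bp is the RS4;11 median. At that start CD79A (2871 and 0 bp), CD79B (2921 and 946 bp), CD22 (2769 and 653 bp) and RAG1 have more covered length in RS4;11 cells. BLNK (1704 and 1706 bp) has nearly the same, and RAG2 (0 and 1664 bp) has more in THP-1 cells through the peak at IFTAP. The genes whose covered length at the gene 5′ end in the 4 files lies nearest to the median of the set, by Euclidean distance, are GLO1, LRRC75A, ALAS1, ADRB1 and CMKLR2, within 13 bp of it, and 50 genes lie within 100 bp, so the likeness is not particular.

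Other genes of the pathway and of neighbouring cell types were counted at the MANE Select start. Of 17 genes of pre-B and B-cell receptor signalling, 9 have a start peak in RS4;11 and 9 in THP-1. GRB2, a general adaptor, has a peak of 3744 bp in RS4;11 cells and none listed in THP-1 cells. BTK, a kinase that acts together with BLNK, has that pattern at the gene 5′ end (3073 bp) but has a peak in both lines at the MANE Select start, 4071 bp in RS4;11 cells and 2784 bp in THP-1 cells. Of 14 genes of the end joining that follows RAG cutting, 10 have a start peak in RS4;11 and 11 in THP-1, and none has a peak in RS4;11 cells only. The repair genes LIG4 (2726 and 2555 bp) and DCLRE1C (4035 and 4123 bp), which code for the ligase and the hairpin-opening nuclease, have nearly equal widths in the lines.

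The markers of the cell types did not all follow the types of leukemia stated with the study. Of 19 B-precursor markers found, 3 have a start peak in RS4;11 cells, IKZF3 and BACH2 among them, and 13 in THP-1 cells, which goes against RS4;11 as the B-precursor line. PAX5 (4037 bp) and EBF1 (2472 bp), transcription factors of the B lineage, have a start peak in THP-1 cells and none listed in RS4;11 cells. Of 22 monocyte and myeloid markers, 7 have a start peak in RS4;11 and 13 in THP-1, with CSF1R, ITGAM and CD68 among those in THP-1 cells only. Here too the THP-1 count is near the background and the RS4;11 count is below it. The part that the missing starts described above have in these counts was not tested, and the counts are not read as a stage of B-cell development.

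Of 18 mature B-cell markers, 8 have a start peak in RS4;11 and 7 in THP-1, and FCRLA (697 bp) and CCR7 (1587 bp) are among those with one in RS4;11 cells only. For plasma-cell markers the counts are 5 and 3 of 11, with FKBP11 (1856 bp) among those in RS4;11 cells only, and for T-cell markers 7 and 5 of 18. The mature B-cell, plasma-cell and T-cell counts are all below the shares of all protein-coding genes, 52.9% in RS4;11 and 60.6% in THP-1. LCK, ZAP70, PTCRA and BCL11B of the T-cell list have a peak in RS4;11 cells only, and so do SPI1 (3100 bp) and PRTN3 (616 bp) of the myeloid list. AZU1 of the myeloid list has one of 747 bp in RS4;11 cells only at the gene 5′ end, but none listed in either line at the MANE Select start. Start peaks in RS4;11 cells only are therefore found in lists of several lineages, and CD79A is among the 1065 of 18922 genes with that pattern.

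**Figure D4:**
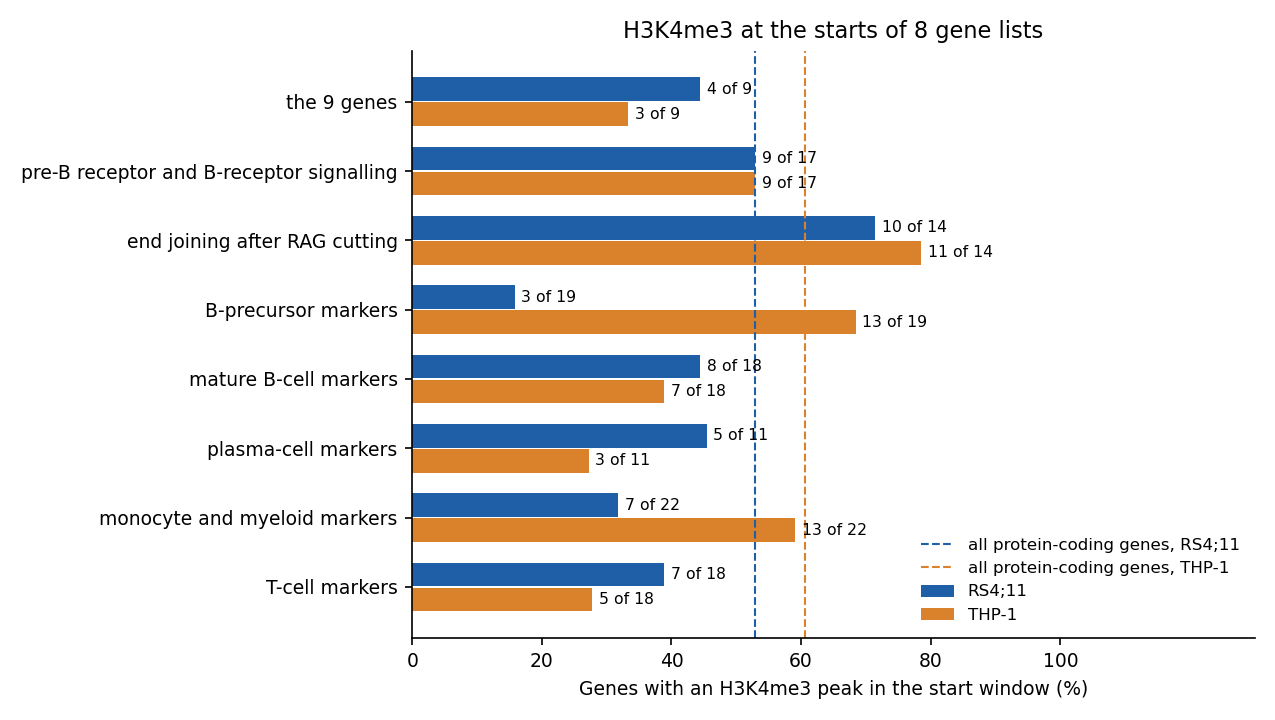
Share of the genes of each list with an H3K4me3 peak in the window at the MANE Select start (bars from 0, in percent, with counts beside them) in RS4;11 cells (blue) and THP-1 cells (orange). Dashed lines are the shares of all protein-coding genes, 52.9% in RS4;11 and 60.6% in THP-1. The B-precursor list is the farthest apart, with 3 of 19 genes marked in RS4;11 and 13 in THP-1.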

How the data were processed

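The 4 ChIP-seq samples, 1 for each antibody (WDR5 or H3K4me3) and cell line (RS4;11 or THP-1), were grouped by the labels. Per the study's methods, the authors cross-linked cells with formaldehyde, sheared the chromatin (a sonicator for WDR5, micrococcal nuclease for H3K4me3), aligned reads to hg19 with Eland, kept those that mapped to a single place, ran MACS at its default settings and joined the peaks to genes with their own Perl script. The submitters' processing notes name CASAVA 1.7 and 1.8.2. The MACS version and whether an input was used are not given in the sources used here. The deposited files hold peak positions, a transcript, a symbol and yes or no flags, and no depth. Loss of reads that align to several places lowers signal in repeats.

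Lines were reduced to distinct peaks and set against GENCODE release 44 on GRCh37, and 0 peaks ran past a chromosome end. A shared base (1 bp) counted as overlap. Counts were judged moved when they changed by more than 1.5 times. The 9 genes and the lists were chosen with earlier results of these data known. The rule for named genes took all 9, from each list up to 4 genes with the widest start peak in RS4;11 only, by the gene 5′ end, and the 5 genes nearest in covered length. Genes outside it (ACTB, GAPDH, EEF1A1, IKZF3, BACH2, PAX5, EBF1, CSF1R, ITGAM, CD68, LIG4, DCLRE1C and neighbours of the peaks) were named after their values were seen. CD24 was not matched in the annotation by symbol, and some items that the rule names are not reported here. The script was tested on simulated data. Python 3.11.15 with matplotlib 3.10.9 was used.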

Additional observations from a re-analysis of the deposited data

How the results depend on the processing

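Of 45 alternatives over 10 results, 33 stayed within 1.5 times the value given and 12 did not. In this paragraph each value is a count of the 9 genes unless bp is written. With the MANE Select start, chosen after the data were seen, genes with a start peak in RS4;11 cells only fell from 3 to 1 and the median covered length in RS4;11 cells from 1704 to 690 bp. With the start of every annotated transcript, genes with a start peak in THP-1 cells were 5 in place of 2, those in RS4;11 cells only were 1, and the median covered length in THP-1 cells was 653 bp in place of 0 bp. With 5 kb to each side, THP-1 cells had 4. When at least 50% of the peak had to lie in the window, RS4;11 cells had 3 in place of 5, and 1 gene was marked in RS4;11 cells only. With lines flagged exon or intron alone, 4 genes were listed with H3K4me3 in each line in place of 7, and 0 with WDR5 in RS4;11 cells in place of 1. With peaks nearest to the gene's own start alone, also chosen after the data were seen, THP-1 cells listed 4 in place of 7. Each alternative changes which starts, peaks or lines are counted, and the cause of each shift was not tested.

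Each antibody and line has 1 sample, so no fit without a replicate was run. No paired analysis was possible because the labels give no replicates. Depth and peak strength are unknown, so no stricter threshold was set, and a missing line in the lists cannot be told apart from a missing mark.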
